A study of Mus musculus with 60 samples.

Results

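Major urinary proteins (MUPs) are small lipocalins, carrier proteins with a barrel-shaped pocket, that male mouse liver makes in large amounts, secretes into the blood and loses to the urine, where they bind and slowly release volatile pheromones. Their transcription in liver depends on the male pulsatile pattern of growth hormone, which acts through the growth hormone receptor, JAK2 and STAT5B, and on glucocorticoids, thyroid hormone and androgens. The genes lie side by side in a cluster on chromosome 4, in which a central group of near-identical copies, among them Mup7 and Mup10, is flanked by more divergent genes such as Mup3 and Mup20, and the protein of Mup20 (darcin) is itself a pheromone that attracts females. Messenger RNA levels of these 4 genes, chosen by name, are described here in cultured hepatocytes. They are 4 of the 20 rows whose symbol starts with Mup and of the 23126 rows of the expression table.

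Hepatocytes were isolated from 20 drug-naïve C57BL/6J males, 8 weeks old. Fathers of 10 of them had drunk nicotine with saccharine (NIC offspring), and fathers of the other 10 had drunk tartaric acid with saccharine (TA offspring). In each group, 5 time course animals gave 5 libraries each, at 0, 1, 3 and 21 h and from a second 21 h culture that the table calls none, and the sample labels give DMSO plus dexamethasone, a synthetic glucocorticoid, for all 50. The other 5 animals of each group gave 1 library at 2 h, 2 with and 3 without dexamethasone, so that there are 60 libraries in all. The cells were released from whole perfused livers by collagenase and adhered for some hours before 0 h, and supporting cells were not sorted away. Library titles end in 1 of 4 dates, written here as A and B (time course, with 3 and 2 animals per father group), C (2 h with dexamethasone) and D (2 h without). What was done on these dates is not stated.

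All values are in ppm, normalized so that each library sums to 1000000. In the 56 libraries of dates A, B and D they behave as TPM (transcripts per 1000000), which are scaled by transcript length, and in the 4 libraries of date C as CPM (reads per 1000000), so that levels of different genes were compared in the 56 only and NIC and TA were always compared within a culture condition. Read totals are known for date C alone (1530794 to 2793007). In dates A and B relative depth was lowest in the 21 h libraries of NIC animals 15, 14 and 11, at 0.0242, 0.034 and 0.0896 of the deepest library of the date. Markers of hepatocytes were present throughout, 10 genes with a summed level of 77708 to 166590 ppm in the 56 libraries and none of them at 0 in all. Those of Kupffer cells and macrophages, 11 genes, summed to 213.5 to 1593 ppm in NIC and 188.7 to 498.9 ppm in TA libraries at 21 h, and to 76.2 to 240.0 ppm in NIC and 98.5 to 174.8 ppm in TA libraries at 0 h. No one of these 11 genes was at 0 in all libraries. Markers of stellate cells and fibroblasts summed to 23.7 to 2026 ppm in NIC and 7.46 to 84.7 ppm in TA libraries at 21 h. Sinusoidal endothelial markers summed to 56.2 to 470 ppm in NIC and 65.3 to 224 ppm in TA at 21 h. Biliary markers summed to 227 to 2739 ppm in NIC and 1524 to 1878 ppm in TA at 2 h without dexamethasone, against 14.7 to 110 and 12.9 to 70.0 ppm at 0 h. The part of these cell types in the results below was not tested. In such bulk samples, a smaller share of hepatocytes and less RNA per hepatocyte cannot be told apart.

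How far reads can be assigned to one MUP gene depends on the sequence the gene does not share. Because the coding part of exon 2 shows this well, its 134 bases are printed for the 4 genes, 5′ to 3′ along the minus strand (GRCm38, GENCODE M21), with capitals where a gene differs from Mup7:
Mup7: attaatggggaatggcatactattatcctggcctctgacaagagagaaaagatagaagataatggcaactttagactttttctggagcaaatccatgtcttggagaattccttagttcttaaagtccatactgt
Mup10: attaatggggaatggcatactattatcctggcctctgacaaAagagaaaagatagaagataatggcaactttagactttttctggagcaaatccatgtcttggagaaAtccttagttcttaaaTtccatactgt
Mup3: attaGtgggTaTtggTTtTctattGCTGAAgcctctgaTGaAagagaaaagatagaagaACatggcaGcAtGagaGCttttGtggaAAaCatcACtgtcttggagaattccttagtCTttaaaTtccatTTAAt
Mup20: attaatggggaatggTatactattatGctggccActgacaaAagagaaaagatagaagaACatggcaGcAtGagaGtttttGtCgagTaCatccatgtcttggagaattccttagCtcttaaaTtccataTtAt

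These stretches lie at chr4:60069733-60069866 in Mup7, chr4:60581521-60581654 in Mup10, chr4:62086800-62086933 in Mup3 and chr4:62053480-62053613 in Mup20. Mup10 differed from Mup7 at 3 of the 134 bases, Mup20 at 18 and Mup3 at 35. Over the whole coding sequence of 540 bases, Mup10 and Mup7 differed at 7, an identity of 98.7%. When each transcript was cut into all its overlapping words of 50 bases, 95.3% of the words of Mup20 and 85.1% of those of Mup3 were found in no other protein-coding MUP transcript, against 13.8% for Mup10 and 5.7% for Mup7. With pseudogene and other non-coding transcripts included, the share of Mup20 was 49.9%, because 48.0% of its words also stand in the pseudogene Mup-ps19. The levels of Mup7 and Mup10 are therefore uncertain as levels of single genes, since reads from a central copy could be counted in the row of another, and those of Mup3 and Mup20 are less so. The sum over all Mup rows does not depend on how such reads were shared between these rows.

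The 4 genes were among the most abundant messages of these cells. In the 56 TPM libraries, Mup7 lay between 11886 and 80749 ppm with a median of 45592, Mup20 between 23448 and 89709 ppm with a median of 40738, Mup3 between 14506 and 39457 ppm with a median of 28779, and Mup10 between 7672 and 33744 ppm with a median of 17993. Their median rank among all genes of a TPM library was 2 for Mup7, 3 for Mup20, 4 for Mup3 and 7 for Mup10. Mup20 was never below rank 5 in these libraries, whereas Mup10 ranged from rank 2 to rank 16. All Mup rows together took 7.77% to 21.8% of the ppm in NIC TPM libraries (median 14.3%) and 9.04% to 22.2% in TA TPM libraries (median 15.6%).

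Ordered by geometric mean over the 16 animals with TPM values, the levels were 42625 ppm for Mup7, 42339 ppm for Mup20, 27488 ppm for Mup3 and 16443 ppm for Mup10. Mup7 and Mup20 did not differ beyond the spread of the animals, Mup7 being the higher in 8 of 16 (mean log2 ratio 0.0097 ± 0.43 SD, exact sign-flip test, adjusted p = 0.93). Mup20 exceeded Mup3 in 15 of 16 animals, by 0.62 ± 0.35 on the log2 scale (exact adjusted p = 9.16e-05, 3 neighbours tested, 2-sided). Mup3 exceeded Mup10 in 16 of 16, by 0.74 ± 0.42 (exact adjusted p = 9.16e-05, with an unadjusted p of 3.05e-05 that is the smallest the test can give). These tests measure the spread between animals and not how reads were shared between near-identical copies. For Mup7 and Mup10 the order is therefore one of rows. Of the words of Mup10, 85.9% also stand in Mup22, which has no row of its own. In single libraries, Mup7 was the highest of the 4 in 29 of 56, Mup20 in 26 and Mup10 in 1, and Mup10 was the lowest in 52.

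The other 16 Mup rows were far lower. Mup14, a central copy, was next with a median of 6680 ppm, followed by Mup21 at 1228 ppm and Mup1 at 1039 ppm, and Mup19 was at 0 in all 60 libraries. Rows of some central copies jumped between libraries. Mup9 reached 4263 ppm in the 0 h library of TA animal 4, against 118 ppm in the next highest library. Mup8 reached 4882 ppm in the 21 h none library of NIC animal 13 and no more than 1025 ppm elsewhere. Mup13 reached 3880 ppm in the 0 h library of NIC animal 11, against 2830 ppm in the next highest library and a median of 128 ppm in all but the highest. The high value of Mup9 was thus of 1 library, in a TA animal, whereas Mup8 and Mup13 were high in several libraries. Mup8 had 1025 ppm in NIC animal 11 at 1 h and 838.6 ppm in TA animal 4 at 21 h, against a median of 81.4 ppm in all but the highest.

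**Figure D1:**
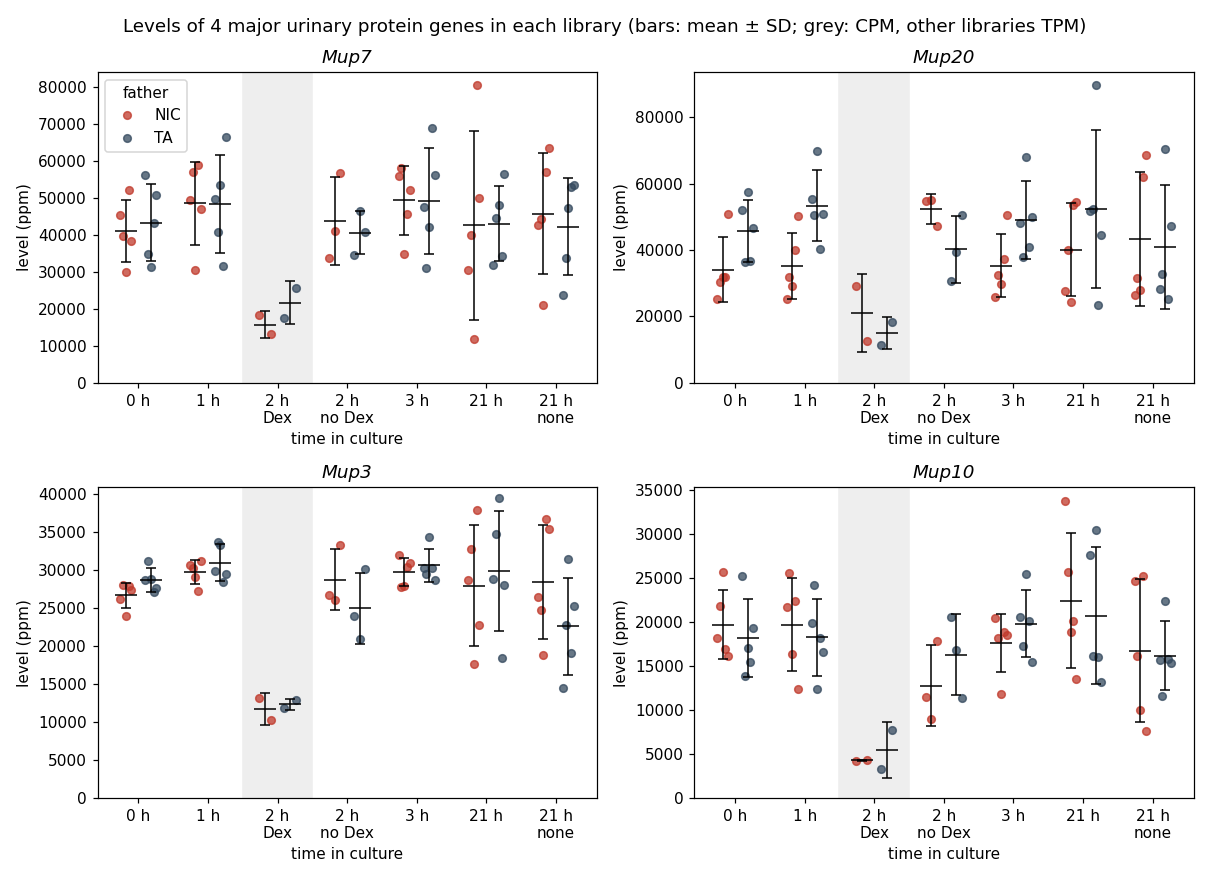
Level (ppm) of Mup7, Mup20, Mup3 and Mup10 in each of the 60 libraries by time in culture, NIC (red) left of TA (dark blue), with mean ± SD; the grey column (2 h with dexamethasone) is in CPM, the others in TPM. NIC and TA overlapped for every gene at 0 h and at 21 h, for Mup20 at 0 h only through NIC animal 15. For Mup3 both 21 h cultures were more spread than 0, 1 and 3 h.

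Whether the father's nicotine exposure went with another level of these genes in the offspring was asked first over all libraries. No member differed between NIC and TA hepatocytes (limma on log2(ppm + 1), p adjusted by Benjamini-Hochberg over 11135 genes), 0 of 4 also having an unadjusted p under 0.05. The difference NIC minus TA was 0.025 (SE 0.078) on the log2 scale for Mup3, -0.055 (SE 0.12) for Mup7, -0.052 (SE 0.12) for Mup10 and -0.20 (SE 0.13) for Mup20, with adjusted p between 0.45 and 0.89. Among all genes tested, 24 (0.216%) were called in this comparison. The fit used a common within-animal correlation of 0.0957, below the members' own values of 0.26 (Mup3) to 0.72 (Mup20). The SE given here therefore tend to be too small for the members, most of all for Mup20. With 1 value per animal, 10 NIC against 10 TA, the differences were 0.048 for Mup3, -0.081 for Mup7, -0.15 for Mup10, 0.023 for Mup20 and -0.0095 for the sum of all Mup rows. Exact permutation within dates gave p of 0.59, 0.59, 0.42, 0.92 and 0.93 for these 5 values (0.93 for each after adjustment over the 5; 14400 splits, smallest possible p 1.39e-04, 2-sided). Between animals of 1 father group, the SD of these values ran from 0.18 in NIC and 0.19 in TA for Mup3 to 0.42 in NIC and 0.44 in TA for Mup20, more than any of the differences. The sign of the Mup20 difference was not the same in both fits, of which the first counts the 5 libraries of each time course animal and the second each animal once.

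**Figure D2:**
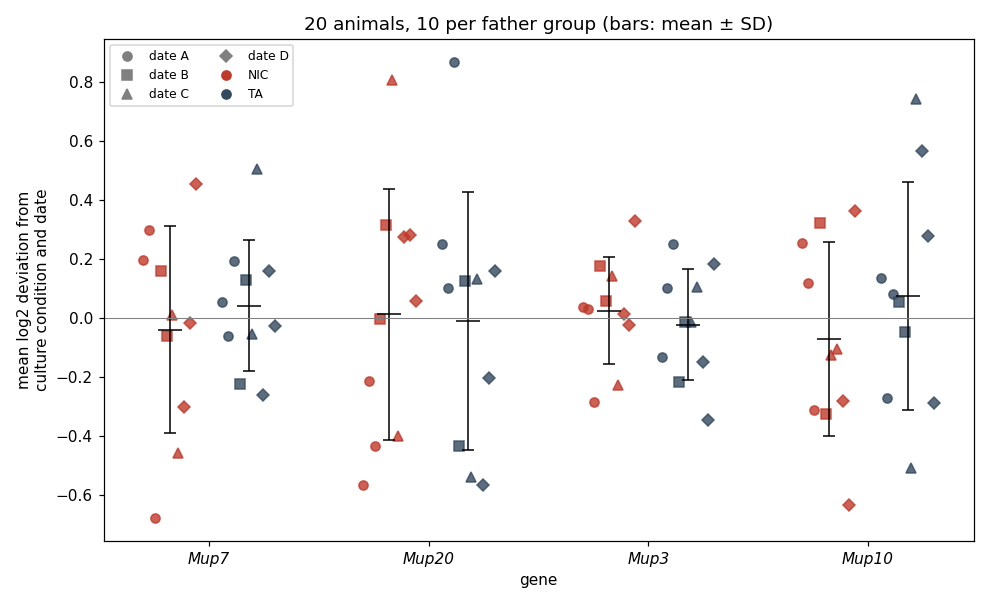
Mean log2 deviation of each of 20 animals from the mean of its culture condition and date, NIC (red) left of TA (dark blue) for each gene, symbols by date, with mean ± SD. The NIC and TA means lie within 0.15 of each other for all 4 genes; for Mup20 the 3 NIC animals of date A are below 0 and the 3 TA animals of that date above it.

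Averaged over the libraries of each animal, Mup20, which encodes darcin, showed a difference whose sign was not the same in all dates. In date A it was lower in NIC by 0.81 (log2 difference of -0.81, 3 animals per group). In dates B, C and D it was higher in NIC, by 0.31, 0.41 and 0.41 (2, 2 and 3 animals per group). The groups of date B overlapped at 0, 1 and 3 h. Its NIC libraries lay above TA only at 21 h (53498 and 54463 ppm, against 23448 and 44416 ppm) and at 21 h none. In the latter they had 62178 and 68554 ppm, against 25116 and 47338 ppm. The 2 NIC libraries of 21 h were among the 3 shallowest. In date C, NIC had 29312 and 12695 ppm, against 11524 and 18338 ppm in TA. At 0 h the NIC libraries had 25172, 30411 and 31772 ppm in date A and 32028 and 50802 ppm in date B, against 51947, 36495 and 57376 ppm in date A and 36597 and 46702 ppm in date B for TA. The 3 NIC libraries of date A and that of NIC animal 14 of date B (32028 ppm) thus lay below every TA library at 0 h. Only NIC animal 15 (50802 ppm) lay within the range of TA. At 1 h Mup20 had 25126, 31924 and 29296 ppm in NIC animals 11 to 13 and 39980 and 50212 ppm in NIC animals 14 and 15, against 55365, 50449 and 69954 ppm in TA animals 1 to 3 and 40471 and 50865 ppm in TA animals 4 and 5. The NIC and TA libraries of 1 h overlapped only through NIC animal 15, and their difference of -0.62 (SE 0.25) did not pass (limma, unadjusted p = 0.019, adjusted p = 1). The same overlap was seen at 3 h, where NIC animal 14 had 37297 ppm and the lowest TA library 37843 ppm. For Mup3, Mup7 and Mup10, within-date differences ran from -0.45 (Mup7, date C) to 0.23 (Mup3, date B), with signs that also differed between dates.

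Within the 7 culture conditions, 0 of 28 tests of a member passed and 2 had an unadjusted p under 0.05. At 0, 1, 3 and 2 h (with and without dexamethasone) no gene at all was called (0%). In limma, 147, 93, 335, 178 and 323 of 11135 genes had an unadjusted p under 0.05, each fewer than chance would give. The fit took a common spread per gene over all conditions, while Mup3 in NIC had an SD of 1691 ppm at 0 h and 8026 ppm at 21 h. The lack of calls at the early times therefore does not show that no gene differed. At 21 h, 602 genes (5.41%) were called, and at 21 h none 572 (5.14%), none of them a member. Mup3 at 21 h none came closest: it had 26514, 24827, 18778, 36704 and 35461 ppm in NIC animals 11 to 15, against 14506, 22730, 31506, 19100 and 25304 ppm in TA animals 1 to 5. The groups overlapped, and the difference of 0.34 (SE 0.17) did not pass (limma, unadjusted p = 0.049, adjusted p = 0.16). Without NIC animal 13 it was 0.48 with an adjusted p of 0.035, and without TA animal 1 or NIC animal 14 it was 0.19 or 0.22, with adjusted p of 0.54 or 0.44. At 2 h without dexamethasone, Mup20 had 54948, 55184 and 47245 ppm in NIC animals and 30661, 39466 and 50677 ppm in TA animals, again with overlap (difference of 0.41, SE 0.33).

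For the 4 libraries at 2 h with dexamethasone, whole reads could be recovered and were tested with edgeR's quasi-likelihood test. Mup7 had 28050 and 25121 reads in NIC animals 16 and 17, against 48940 and 46554 reads in TA animals 6 and 7. Read totals differed between these libraries, from 1530794 in NIC animal 16 to 2793007 in TA animal 6. In ppm, Mup7 had 18324 and 13254 in NIC animals 16 and 17, against 17522 and 25804 in TA animals 6 and 7, so that the groups overlapped. Mup20 had 44870 and 24061 reads in NIC, against 32186 and 33085 reads in TA. Relative to library size the differences were -0.56 for Mup7, 0.38 for Mup20, -0.19 for Mup3 and -0.46 for Mup10. None passed (edgeR, adjusted p of 0.57, 0.91, 0.94 and 0.84, unadjusted p of 0.029 for Mup7), and the test called 1 of 8621 genes (0.0116%).

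How the genes behaved as hepatocytes lost their differentiated state in culture was asked with each time against 0 h, over both father groups. On the ppm scale no member changed by the test at any time (limma, 0 of 20 tests, 1 with an unadjusted p under 0.05), while much of the transcriptome did. After 21 h, Mup7 differed from 0 h by -0.092 (SE 0.17), Mup20 by 0.15 (SE 0.17), Mup3 by 0.017 (SE 0.11) and Mup10 by 0.14 (SE 0.17), with adjusted p from 0.49 to 0.91. In the 21 h none cultures the differences from 0 h were 0.0081 for Mup7, 0.0078 for Mup20, -0.17 for Mup3 and -0.27 for Mup10, with adjusted p from 0.17 to 0.97. Of all genes, 5650 (50.7%) were called at 21 h, 3232 higher (29.0%) and 2418 lower (21.7%), and 7147 (64.2%) at 21 h none, 5246 higher (47.1%) and 1901 lower (17.1%). After 1 h only 1 gene (0.00898%) and after 3 h 15 genes (0.135%) were called. The common within-animal correlation of this fit (0.111) was below the members' own values. Their SE for changes within animals therefore tend to be too large.

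That result rests on the scale. In ppm the median of all genes stood 0.12 above 0 h at 21 h and 0.49 above it at 21 h none, so that every member at 21 h none lay below the median gene. With libraries scaled by the median of ratios, where the median gene stood at -0.049 and 0.072, all 4 members had negative values at both 21 h cultures. At 21 h none, Mup3 then fell by 0.66 (limma, adjusted p = 0.0069) and Mup10 fell by 0.76 (adjusted p = 0.0058), while Mup7 at -0.48 and Mup20 at -0.48 did not pass. Thus as shares of the library none of the 4 genes passed the test at 21 h none, and relative to the median gene Mup3 and Mup10 were lower.

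**Figure D3:**
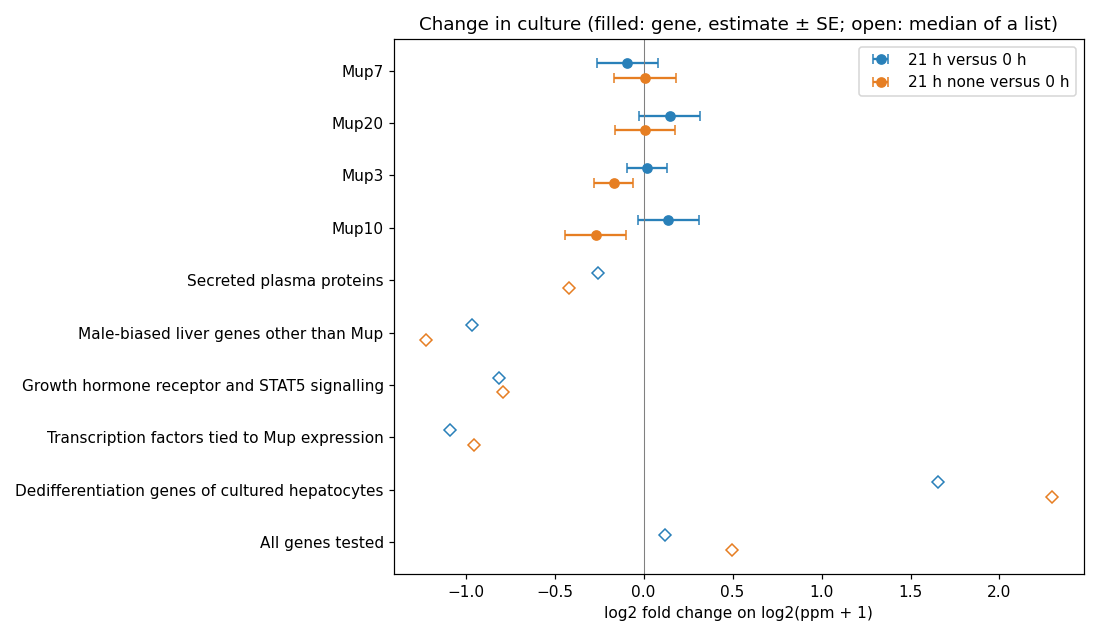
Log2 fold change on log2(ppm + 1) against 0 h, at 21 h (blue) and 21 h none (orange): filled points, Mup7, Mup20, Mup3 and Mup10 with SE; open points, medians over gene lists and over all genes tested. The 4 genes lie between -0.27 and 0.15, the medians of the male-biased, growth hormone and transcription factor lists between -1.23 and -0.79.

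The member with the largest difference between the 21 h cultures was Mup10. It had 24636, 16120, 9969, 25232 and 7672 ppm at 21 h none in NIC animals 11 to 15, against 33744, 25709, 18892, 20117 and 13562 ppm at 21 h. In TA animals 1 to 5 it had 15675, 11572, 22418, 15837 and 15352 ppm at 21 h none, against 27656, 16158, 30447, 16050 and 13192 ppm at 21 h. It was lower at 21 h none in 8 of 10 animals, with a mean difference of -0.41 (limma SE 0.17, unadjusted p = 0.022, adjusted p = 0.069), where 2949 genes (26.5%) were called. Mup10 passed without NIC animal 14 (-0.51, adjusted p = 0.025) and with libraries scaled by the median of ratios (-0.71, adjusted p = 0.043).

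Early differences were small. One hour after the start, Mup3 was higher than at 0 h in 9 of 10 animals, by a mean of 0.13 ± 0.095 on the log2 scale (SD, exact sign-flip test, p = 0.0039). The sum of all Mup rows was higher in 7 of 10 by 0.13 ± 0.15 (exact p = 0.027), and Mup20 in 7 of 10 by 0.14 ± 0.18 (exact p = 0.035). None of the 25 tests of this family passed after adjustment (5 with an unadjusted p under 0.05; adjusted p for Mup3 0.098). The summed rows differed from 0 h by 0.061 ± 0.43 at 21 h and by -0.038 ± 0.44 at 21 h none (exact p = 0.66 and 0.81), an SD about as wide as that of single members.

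For none of the 4 genes did a difference between NIC and TA in the course over time pass the test. The interaction of father and 21 h called 22 genes (0.198%) and that of father and 21 h none called 1 gene (0.00898%), and 0 of 8 tests of a member passed or had an unadjusted p under 0.05 (limma). The largest values were 0.52 (SE 0.34, adjusted p = 0.38) for Mup20 and 0.44 (SE 0.22, adjusted p = 0.28) for Mup3, both at 21 h none.

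Several genes of the pathway behind MUP transcription were lower after 21 h. Of 15 genes of growth hormone and STAT5 signalling, 9 fell and 1 rose (median -0.81 against 0.12 for all genes). Among all genes tested, 21.7% were called lower at 21 h and 17.1% at 21 h none. Ghr, the growth hormone receptor, averaged 159 ppm at 21 h and 295 ppm at 0 h, and was lower in 10 of 10 animals (log2 fold change -0.94, SE 0.14, limma adjusted p = 4.01e-07). Igf1, the growth factor that liver secretes in response to the hormone, fell by 0.81, Igfals, which holds IGF in the circulation, fell by 2.24, and Socs3, a feedback inhibitor of JAK signalling, fell by 2.79. At 21 h none 9 of the 15 again were lower, and 14 with libraries scaled by the median of ratios.

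Transcription factors tied to MUP expression were lower as well, with 9 of 13 tested falling and none rising at 21 h (median -1.09), against 21.7% of all genes called lower. Cebpa, a liver-enriched activator, averaged 47.0 ppm at 21 h and 103 ppm at 0 h, and fell by 1.18 on the log2 scale. Hnf4a, a nuclear receptor that maintains the hepatocyte programme, fell by 1.09. Nr1h4, the bile acid receptor, fell by 1.44, and Thrb, a thyroid hormone receptor, fell by 1.32. Each of Cebpa, Hnf4a and Nr1h4 was lower in 10 of 10 animals.

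Most other genes with male-biased expression in liver were lower in ppm after 21 h. Of 25 tested, 20 fell at 21 h and 21 at 21 h none, and none rose (medians -0.96 and -1.23), against 21.7% and 17.1% of all genes called lower. Gstp1, a glutathione transferase, averaged 2213 ppm at 21 h and 4347 ppm at 0 h (log2 fold change -0.98, SE 0.10, limma adjusted p = 2.92e-11). Nudt7, a peroxisomal coenzyme A hydrolase, fell by 1.60 and Egfr, the epidermal growth factor receptor, fell by 0.96. At 21 h none Cyp7b1, an oxysterol hydroxylase, fell by 1.40 and Cyp2d9, a male-specific steroid hydroxylase, fell by 1.60. Of 14 tested female-biased genes, 8 fell and 3 rose at 21 h, against 21.7% and 29.0% of all genes.

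The 20 genes with the highest mean ppm were chosen over all 60 libraries, the 4 CPM libraries included. Among them, 14 including the 4 members were not called at 21 h, 5 fell and 1 rose. Alb (albumin, the main plasma protein) differed by 0.090 (SE 0.11), and Serpina3k, an abundant serine protease inhibitor, by -0.084 (SE 0.090). Of 23 secreted plasma proteins, 10 fell and none rose (median -0.26), against 21.7% of all genes called lower. Without the 3 shallowest NIC 21 h libraries, 6 of them fell. Fga, a fibrinogen chain, fell by 0.67, Ttr, a carrier of thyroxine and retinol-binding protein, fell by 0.46, and Ahsg, fetuin A, fell by 0.47, each in 10 of 10 animals. Of 9 tested lipocalins other than MUPs, 1 rose and 2 fell, against 29.0% and 21.7% of all genes. Lcn2, which binds bacterial siderophores, rose by 1.86. Apom, which carries sphingosine-1-phosphate, fell by 0.44 and Ambp, the precursor of alpha-1-microglobulin, fell by 0.30. Without NIC animal 15, Apom (-0.26, limma adjusted p = 0.054) and Ambp (-0.27, adjusted p = 0.062) did not pass, and Ambp was also lost without TA animal 3, TA animal 4 or NIC animal 14 and without the 3 shallowest NIC 21 h libraries (-0.16, adjusted p = 0.27).

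Genes of dedifferentiating hepatocytes moved the other way, 18 of 20 rising at 21 h and none falling (median 1.65), against 29.0% of all genes called higher. Lgals3, a galectin, averaged 92.9 ppm at 21 h and 3.19 ppm at 0 h, and Ctgf, a target of YAP, 27.6 ppm at 21 h and 0.43 ppm at 0 h. Glucocorticoid receptor targets were mixed, with 5 rising and 8 falling of 18, against 29.0% and 21.7% of all genes. Tat, a glucocorticoid-induced enzyme of tyrosine breakdown, fell by 1.78 and Mt2, a metallothionein, rose by 2.02. In NIC against TA over all libraries, the lists held 3 calls: Lpin1, a phosphatidate phosphatase, and Tat were higher in NIC, by 1.01 and 0.56, and Gclc, an enzyme of glutathione synthesis, was lower (log2 difference of -0.70). With 1 mean per animal none of these 3 passed in limma, and Tat and Gclc also lost the call without single animals (adjusted p up to 0.17 for Tat and 0.15 for Gclc).

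Within the family, 3 of 17 rows tested fell at 21 h, against 21.7% of all genes called lower: Mup9 fell by 1.70, Mup13 fell by 1.65 and Mup11 fell by 1.06. The averages of Mup9, 33.7 ppm at 21 h and 469 ppm at 0 h, hold the single 0 h library of 4263 ppm named above, and those of Mup13, 104 ppm at 21 h and 703 ppm at 0 h, the 0 h library of 3880 ppm. At 21 h none 2 of 17 fell, against 17.1% of all genes, Mup9 (log2 fold change -1.67, lower in 10 of 10 animals) and Mup21 (-0.44, lower in 9 of 10). Mup9 had no transcript that met the selection for the word count, so that its share of own words is not known, and Mup13 had few own words (6.39%). Without the 3 shallowest NIC 21 h libraries, neither Mup13 (-1.46) nor Mup11 (-0.59) passed. Calls were also lost by leaving out 1 animal, for Mup13 without TA animal 5 (-1.39) or NIC animal 11 (-1.32) and for Mup11 without TA animal 4 (-0.81), NIC animal 14 (-0.86) or NIC animal 15 (-0.70). Without TA animal 4, Mup9 passed at 21 h (-1.01) but not at 21 h none (-0.95), and Mup21 at 21 h none did not pass without TA animal 1 (-0.37, limma adjusted p = 0.059) or NIC animal 13 (-0.38, adjusted p = 0.060).

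Animals differed in Mup20 more than did the libraries of 1 animal. In the time course, NIC animals had 25126 to 27632 ppm (animal 11), 30411 to 40166 ppm (animal 12), 24472 to 31772 ppm (animal 13), 32028 to 62178 ppm (animal 14) and 50212 to 68554 ppm (animal 15). TA animals had 28248 to 55365 ppm (animal 1), 32927 to 52476 ppm (animal 2), 57376 to 89709 ppm (animal 3), 23448 to 41006 ppm (animal 4) and 44416 to 50865 ppm (animal 5). All 5 libraries of TA animal 3 lay above those of NIC animals 11, 12 and 13 and of TA animals 1, 2, 4 and 5. With the mean of each culture condition and date removed, the SD of Mup20 between animals was 0.43 on the log2 scale and that within animals 0.24. Father groups were not removed, so that differences between NIC and TA within a date are part of the SD between animals.

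The correlation between libraries of 1 animal was fitted per gene over all 60 libraries, of which only those of the time course share an animal. It was 0.72 for Mup20, against a median of 0.083 over 11135 genes, of which 61 had a higher value. It was 0.31 for Mup7, 0.29 for Mup10 and 0.26 for Mup3. For the other 3 the SD within animals, computed in the same way as for Mup20, was larger than that between animals. It was 0.21 against 0.17 for Mup3, 0.31 against 0.28 for Mup7 and 0.32 against 0.23 for Mup10. Geometric means of the 10 animals spanned a factor of 2.7 for Mup20, 2.4 for Mup7, 1.8 for Mup10 and 1.4 for Mup3.

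**Figure D4:**
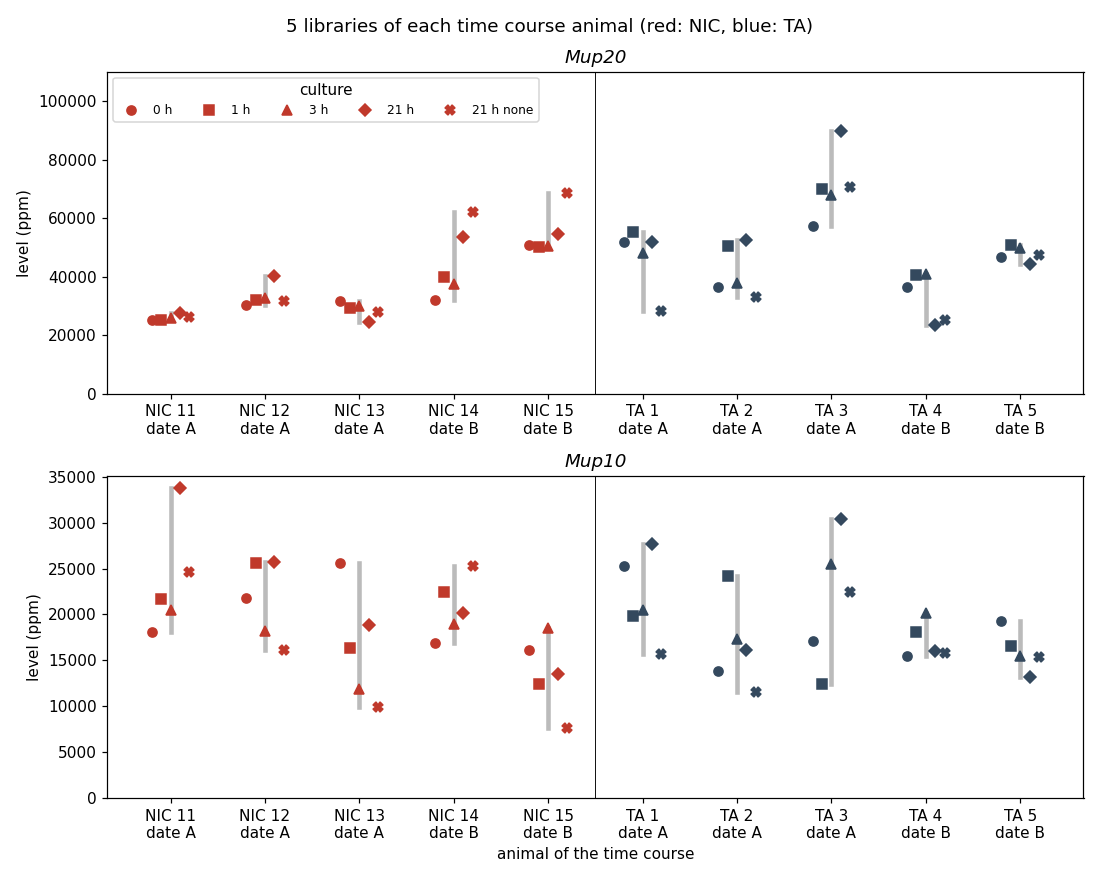
Level (ppm) of Mup20 and Mup10 in the 5 libraries of each time course animal, NIC (red) left of TA (dark blue), symbols by culture, grey bars from lowest to highest library. For Mup20 the libraries of some animals lie close together, as in NIC animal 11 (25126 to 27632 ppm), and those of TA animal 3 lie above those of the other 4 TA animals and of NIC animals 11 to 13; for Mup10 the ranges of most animals overlap.

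Whether animals high in 1 gene were high in another was asked with the mean log2 deviation of each of 20 animals from its culture condition and date. Mup3 went with Mup7 (Pearson's r = 0.60, adjusted permutation p = 0.035; Spearman's rho = 0.54, adjusted p = 0.071; 6 pairs tested) and with Mup20 (r = 0.57, adjusted permutation p = 0.035; rho = 0.47, adjusted p = 0.11). The relation of Mup3 and Mup7 had r of 0.74 in date A, 0.81 in date B and 0.37 in date D, and 0.67 without the 2 animals farthest from the median. That of Mup3 and Mup20 had r of 0.59, 0.70 and 0.51 in dates A, B and D, and without 2 animals it kept its size (r = 0.55) but not its adjusted p (permutation, 0.073). Date C has 4 animals, too few for a value of its own. Mup7 and Mup10, the near-identical pair, had r = 0.51 (rho = 0.59, adjusted permutation p of 0.085 and 0.071), with r of 0.81, 0.37 and 0.25 in dates A, B and D and 0.34 without 2 animals. Mup20 did not pass with Mup7 (r = 0.31, adjusted permutation p = 0.41) or with Mup10 (r = -0.15, adjusted permutation p = 0.69).

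Among the 3213 genes with a mean above 25 ppm, those whose deviations were most like those of Mup20 were Mup21 (r = 0.72), from the same end of the cluster, Hsd17b13 (0.63), a lipid droplet dehydrogenase, Cyp4v3 (0.60), a fatty acid hydroxylase, Mup3 (0.57) and Cyp4a12a (0.49), a male-biased fatty acid hydroxylase. For Mup3 they were Alb (0.81), Hsd11b1 (0.77), which regenerates active glucocorticoid, Hsd17b13 (0.77), Hrsp12 (0.76) and Rgs16 (0.72). For Mup7 they were Cyp4v3 (0.73), Hsd17b13 (0.68), Alb (0.66), Sdc2 (0.64) and Cox7b (0.63), and for Mup10 4931406C07Rik (0.61), Slc25a1 (0.61), Sec63 (0.60), Cyc1 (0.59) and Acsf2 (0.59). Hsd17b13, Alb and Cyp4v3 stood on more than 1 of these lists, Mup10's list shared no gene with the other 3, and all these values are descriptions over the same 20 animals.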

How the data were processed

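RNA was depleted of rRNA and sequenced as strand-specific libraries on a NextSeq 500. Alignment by the authors used Bowtie2 and mm10; versions, counter and annotation are not given in the sources used here. The deposited table holds 1 value per gene and library. The values deposited by the authors for 4 libraries (date C) are CPM, every value being a whole multiple of 1 read (100% of values, tolerance 0.05), so that their counts were recovered from the deposited values. Those of the other 56, deposited by the authors as ppm, behave as TPM and keep no read totals. The table's symbols include 27 that had been turned into calendar dates and 2 that occur more than once.

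Log2(ppm + 1) was fitted with limma 3.58.1 (R 4.3.3, intensity trend) over 11135 genes averaging more than 1 ppm, with terms for culture condition, date B against A and father, or for father by culture condition, and the animal as a random block (statmod 1.5.0, consensus correlation 0.0957 and 0.111). A fold change on this scale understates that of low genes. Calls were made at a Benjamini-Hochberg adjusted p under 0.05, where the authors' methods name DESeq2 with Holm's correction; Holm's was an alternative. Single values were tested over animals by exact permutation within dates or exact sign flips, and likeness between genes by 100000 permutations within dates. Recovered counts were tested with edgeR 4.0.16 and, as an alternative, DESeq2 1.42.0. The limma script was tested on simulated data.

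Animals follow the blocks of title numbers and the study's sample lists, which disagree on 1 NIC library of 21 h none (animal 14 here, animal 11 as listed). What the table means by none is not stated, and dexamethasone cannot be told apart from date and unit at 2 h. Per the study's description, the animals of a father group came from separate litters. Words of 50 bases and coordinates come from GENCODE M21 on GRCm38. Named genes were the members, all other Mup rows, up to 4 genes of smallest p per list and the 5 genes most like each member; Serpina3k was named apart from this rule, after its values were seen, as an abundant gene. The members and lists were chosen with earlier results of these data known. Other alternatives were the pseudocount, the filter, the scaling, the block, the libraries and leaving out each animal.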

Additional observations from a re-analysis of the deposited data

Results flagged for a closer look

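In groups of 5 libraries of 1 father and culture condition, a library was singled out where its gap to the nearest other exceeded Dixon's 95% critical value. This held for 19 of 148 groups of values (12.8%), where chance gives about 5%. The 148 also hold groups of the sum of all Mup rows, of other Mup rows and of animal means of the members. Most of the 19 were of other Mup rows and 3 were of a member, so that the excess over 5% is not a result about the members. Mup3 had 34386 ppm at 3 h in TA animal 3, against 28745 to 30318 ppm in the other 4 TA libraries. Mup10 had 11856 ppm at 3 h in NIC animal 13, against 18229 to 20475 ppm in the other 4 NIC libraries. Mup20 had 50802 ppm at 0 h in NIC animal 15, against 25172 to 32028 ppm in the other 4.

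The other 16 were rows of other family members, all on the high side. Mup13 had 2830 ppm at 1 h in NIC animal 13, 415.4 ppm at 0 h in TA animal 5 and 1895 ppm at 1 h in TA animal 4. Mup8 had 1025 ppm at 1 h in NIC animal 11, 4882 ppm at 21 h none in NIC animal 13, 838.6 ppm at 21 h in TA animal 4 and 107.4 ppm at 21 h none in TA animal 5. Mup2 had 977 ppm at 0 h in NIC animal 13, 1529 ppm at 1 h in TA animal 1, 159.7 ppm at 21 h none in TA animal 2 and 213.1 ppm at 3 h in TA animal 2. Mup9 had 64.2 ppm at 21 h none in NIC animal 13 and 4263 ppm at 0 h in TA animal 4, Mup15 had 142.6 ppm at 21 h in NIC animal 14 and 40.2 ppm at 3 h in TA animal 1, and Mup1 had 1778 ppm at 21 h in TA animal 5. Of the rows of these outlying values, Mup2 and Mup15 have no 50-base word of their own (0%), and Mup1, Mup8 and Mup13 have 5.2% to 6.4%.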

How the results depend on the processing

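On alternatives, the members' calls held with few exceptions. With each animal left out in turn, 0 to 1 of 28 tests of a member within a culture condition and 0 to 1 of 20 over time passed. Over time, 1 of 20 passed with a mean above 25 ppm (Mup10, 21 h none against 21 h) and 3 with libraries scaled by the median of ratios. Under the latter scaling, signs turned for Mup3 (-0.18), Mup10 (-0.054), Mup20 (-0.048) and Alb (-0.10) at 21 h against 0 h, for Mup7 (-0.48) and Mup20 (-0.48) at 21 h none against 0 h, for Mup7 at 21 h none against 21 h (-0.20), and for NIC against TA over all libraries in Mup7 (0.038) and Mup10 (0.040); these turns follow from the scale. Other turned signs were of values near 0: Mup10 with the time course alone (0.021) and Mup20 with 1 mean per animal (0.023) for NIC against TA, and Mup3 at 21 h without the 3 shallowest NIC 21 h libraries (-0.037).

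Leaving out 1 animal, NIC against TA ran from -0.026 to 0.086 for Mup3, from -0.12 to 0.086 for Mup7 and from -0.13 to 0.017 for Mup10 over all libraries, and on animal means from -0.14 to 0.00068 for Mup7, from -0.090 to 0.13 for Mup20 and from -0.052 to 0.045 for the summed rows. At 21 h against 0 h it gave -0.037 to 0.089 for Mup3, -0.19 to 0.052 for Mup7 and, on animals, -0.0038 to 0.14 for the summed rows. At 21 h none against 0 h it gave -0.074 to 0.16 for Mup7, -0.079 to 0.086 for Mup20 and -0.098 to 0.065 for the summed rows. At 1 h against 0 h the range was 0.100 to 0.16 for Mup20 and 0.11 to 0.15 for the summed rows, and for Mup10 at 21 h none against 21 h it was -0.49 to -0.35, the exact unadjusted p passing 0.05 without some animals. The adjusted p of Mup3 with Mup20 was lost without 2 animals (r = 0.55).

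Counts of all genes moved more. NIC against TA called 24 genes, 37 with a pseudocount of 10, 14 with a mean above 25 ppm, 14 with the median of ratios, 9 without the 3 shallowest libraries, 8 with Holm's adjustment, 0 with 1 mean per animal, 284 with no replicate block (that is, without the pairing of libraries by animal) and 6 to 775 with an animal left out (775 without NIC animal 13). At 21 h it called 602 genes, 930 with a pseudocount of 0.1, 82 with a mean above 25 ppm, 0 without the 3 shallowest libraries and 106 to 1722 with an animal left out. At 21 h none it called 572, 1831 with a pseudocount of 10, 253 with the median of ratios, 376 with animals as listed, 381 without date C, 288 with the time course alone, 2165 without the 3 shallowest libraries and 4 to 2043 with an animal left out. Over time, the filter at 25 ppm left 2148 calls at 21 h, 2434 at 21 h none and 1270 between them, where the median of ratios gave 1422 and leaving out an animal 1139 to 4237. With that filter 4 growth hormone genes and 4 transcription factors were lower at 21 h and at 21 h none, fewer being tested, and with the median of ratios 14 growth hormone genes at 21 h none. Of the plasma proteins, 6 were lower without the 3 shallowest libraries and 6 to 11 with an animal left out. DESeq2 called 13 genes in date C where edgeR called 1.

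For 63 pairs of a named gene and a comparison, 664 of 694 fits under other settings and 1211 of 1260 without 1 animal kept direction and call. Chosen after the data were seen were the alternatives for the interaction, the gene lists and the order of levels, in which the 10 time course animals gave the same order. Relative depth, known only within dates, limits the 21 h libraries of NIC most. No paired analysis by replicate number was possible because the labels give none; libraries were paired by animal.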
